A study of Mus musculus with 12 samples.

Results

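The baseline open chromatin of homeostatic Th17 cells was described from the 3 wild-type control libraries, out of 12 libraries in the series. They were chosen by their labels alone, as wild-type cells without dexamethasone, and no other group was used. The cells were CD4+ T cells of genotype WT (C57/B6): naive cells from spleen and dLN were differentiated in culture to the Th17Hom state, then kept for 2 days as control cells without the glucocorticoid. Libraries came from 6000 sorted cells each and were amplified for 16 PCR cycles. The cells were made in culture, so they stand for that culture model rather than for Th17 cells taken from a tissue, and the labels do not say whether the 3 samples came from separate animals or cultures.

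ATAC-seq uses a transposase that cuts and tags DNA where nucleosomes and bound proteins leave it accessible, so the number of counts in a stretch of the genome follows how open that stretch is in the cells. Open stretches are promoters, where transcription starts, and enhancers, which lie within or between genes and bind the transcription factors that set a cell's identity. Th17 cells are CD4+ T helper cells that make the cytokines IL-17A and IL-17F. They depend on nuclear receptors such as RORα, encoded by Rora, on STAT3, and on the pioneer-like pair BATF and IRF4. Homeostatic Th17 cells are the kind tied to barrier maintenance and IL-10, and pathogenic Th17 cells are the kind driven by IL-23 in autoimmune disease.

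The joint peak set held 222105 peaks, and the 3 libraries had 12988437, 21138353 and 24595233 counts in them. Levels are given as CPM, the counts of a peak scaled to a common library size by the TMM method, and between genes as CPM per kb of peak width. Dividing by width favours narrow peaks over wide ones. One count was worth 0.0754, 0.0486 and 0.0404 CPM in replicates 1, 2 and 3, and 3 counts, the limit that a count of 0 allows, were worth 0.226, 0.146 and 0.121 CPM. These limits cover counting error only, since reads amplified by PCR were not tagged by molecule. A total of 1754, 632 and 375 peaks had no count in replicates 1, 2 and 3. Across peaks, log2(CPM + 0.5) correlated between pairs of libraries at Pearson's r = 0.957, 0.956 and 0.972 and Spearman's rho = 0.870, 0.867 and 0.904, as a description over peaks that share the depth and scaling of their library. The counts of each pair differed beyond sampling noise (chi-square divided by its degrees of freedom, 2.14 to 2.48), and the common biological coefficient of variation was 15.5%. In bulk cells, fewer cells with an open site and less opening per cell cannot be told apart. With 3 libraries an exact sign-flip test cannot go below a two-sided p of 0.25, so differences between sites are given with their SD over libraries and the number of libraries that show them, and with no p.

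The 4 defining Th17 markers all had strong peaks, where a strong peak is one in the top 10% of all peaks by CPM per kb in each of the 3 libraries (19001 peaks, 8.6% of all). A strong peak was assigned to 42.9% of all protein-coding genes. The markers had a median of 23.5 assigned peaks, against 5 over all genes, and more assigned peaks make a strong one easier to find. Il17a and Il17f encode the lineage's cytokines, Ccr6 the chemokine receptor for CCL20, and Il23r the receptor chain for IL-23. Their strongest peaks by CPM per kb lay away from their gene starts: 9.79 kb downstream of the Il17a start, between Il17a and Il17f, and inside Ccr6 and Il23r. All 4 had peaks at their own starts that were weaker on that scale. The gene-start level is that of the strongest peak that overlaps the window within 1 kb of a start. It was 19.98 ± 1.64 CPM per kb for Il17f, 16.2 ± 1.54 for Ccr6, 11.4 ± 3.59 for Il17a and 1.95 ± 0.370 for Il23r (SD, n = 3). Over all 21631 protein-coding genes it had a median of 6.91 CPM per kb.

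The promoters of the 4 markers, 250 bases before to 50 bases after the listed start, are shown because their sequence differs from that of most promoters with a high level, as described further on. They are from RefSeq on GRCm38.p6, 5′ to 3′ on the strand of the gene: Il17a at chr1:20730655-20730954 (plus strand), Il17f at chr1:20784221-20784520 (minus), Ccr6 at chr17:8235793-8236092 (plus) and Il23r at chr6:67491806-67492105 (minus). Capitals mark matches, on either strand, to the letters of AP-1 (TGANTCA), the CCAAT box (CCAAT), ETS factors (CCGGAAG), the GC box (GGGCGG), the ROR half-site (TAGGTCA), Runx factors (TGTGGT), STAT factors (TTCNNNGAA), the TATA box (TATAAA) or GATA factors (AGATAA), and matches of different motifs may overlap.
Il17a: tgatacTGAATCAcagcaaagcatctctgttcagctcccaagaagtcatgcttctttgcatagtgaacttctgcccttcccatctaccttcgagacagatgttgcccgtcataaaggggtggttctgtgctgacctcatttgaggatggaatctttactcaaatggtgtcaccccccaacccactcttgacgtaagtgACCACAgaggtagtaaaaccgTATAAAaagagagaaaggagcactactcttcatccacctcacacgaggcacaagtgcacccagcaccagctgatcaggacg
Il17f: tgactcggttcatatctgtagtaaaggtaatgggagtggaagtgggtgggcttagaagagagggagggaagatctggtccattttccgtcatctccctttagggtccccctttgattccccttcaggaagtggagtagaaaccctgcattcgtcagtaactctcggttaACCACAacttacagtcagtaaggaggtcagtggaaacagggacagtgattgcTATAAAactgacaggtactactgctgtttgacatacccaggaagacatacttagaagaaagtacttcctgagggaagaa
Ccr6: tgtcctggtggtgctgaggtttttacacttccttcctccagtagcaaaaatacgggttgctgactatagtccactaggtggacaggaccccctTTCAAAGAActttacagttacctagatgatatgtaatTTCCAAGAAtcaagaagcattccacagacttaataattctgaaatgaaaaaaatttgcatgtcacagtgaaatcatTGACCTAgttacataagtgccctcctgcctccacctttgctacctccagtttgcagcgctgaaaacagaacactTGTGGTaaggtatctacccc
Il23r: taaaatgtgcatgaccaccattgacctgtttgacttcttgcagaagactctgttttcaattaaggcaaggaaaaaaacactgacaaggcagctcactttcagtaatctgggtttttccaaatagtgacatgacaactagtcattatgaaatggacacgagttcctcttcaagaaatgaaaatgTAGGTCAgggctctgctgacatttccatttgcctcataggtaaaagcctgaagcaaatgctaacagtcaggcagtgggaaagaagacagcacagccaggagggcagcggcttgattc
The Il17a promoter held AP-1, Runx and TATA box letters, and that of Il17f held Runx and TATA box letters. The Ccr6 promoter shown had 2 STAT matches, a Runx match and a ROR half-site match, and Il23r had a ROR half-site match alone. Ccr6 has another listed start, with its promoter at chr17:8242276-8242575. That promoter had a GATA match alone and 10 CpG dinucleotides, against 2 in the one shown, under a lower peak of 8.00, 8.19 and 7.65 CPM per kb. Among all 17267 genes with a listed promoter free of unread bases, 7.16% of promoters held the AP-1 letters, 2.35% the ROR half-site letters, 7.89% the STAT letters, 14.8% the Runx letters and 13.3% the TATA box letters. A match describes the letters and is not a measured binding site.

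From 20 kb before the Il17a start to 20 kb beyond the Il17f start, a stretch of 93.4 kb, 35 peaks were listed. Of these, 5 were strong, or 14.3% against 8.6% of all peaks. The highest, at chr1:20740301-20741082 on mm10, had 93.6, 89.7 and 85.7 CPM per kb in replicates 1, 2 and 3, from 970, 1445 and 1658 counts. It ranked 14 among all 222105 peaks by CPM per kb and 850 by CPM. It lay 6195 bases outside the nearest gene span, that of Il17a. The next, at chr1:20754400-20754920 and 23.8 kb from the Il17a start, had 44.2, 47.5 and 42.8 CPM per kb. Another, at chr1:20759468-20760821 and 24.1 kb from the Il17f start, had 35.7, 40.3 and 38.3 CPM per kb. These 3 peaks stood well above everything else between the genes, where the other peaks had mean levels of at most 8.72 CPM per kb, and their values in the 3 libraries did not overlap with those of any peak at either gene's start.

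**Figure D1:**
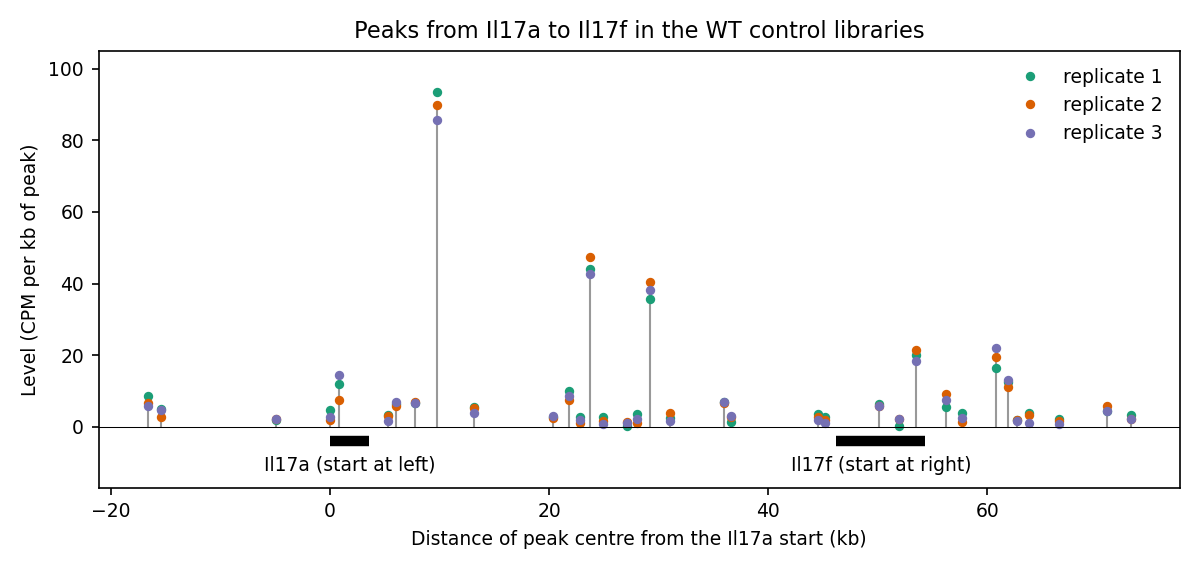
Level of each peak (CPM per kb of peak width) in the 3 WT control libraries, by distance of the peak centre from the Il17a start in kb; points are libraries, grey lines reach the mean, and black bars mark the gene spans. The peak 9.79 kb from the Il17a start reached 85.7 to 93.6 CPM per kb, and the peak at the Il17f start 18.3 to 21.6.

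Over the Il17a promoter itself the peak was low, at 4.77, 2.01 and 2.82 CPM per kb in the 3 libraries. The peak that sets its gene-start level is a narrow one of 349 bases centred 0.81 kb inside the gene, with 12.1, 7.51 and 14.6 CPM per kb. Replicate 2 was the lowest in both. The Il17f start peak, over the printed promoter, had 20.03, 21.6 and 18.3 CPM per kb and was strong. Between the strongest peaks of the genes, Il17a was 1.23 ± 0.13 log2 units above Il17f (SD, n = 3), 1.16 ± 0.20 above Ccr6 and 0.74 ± 0.07 above Il23r, in 3 of 3 libraries each. Its strongest peak exceeded its gene-start level by 3.03 ± 0.52 log2 units.

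At Ccr6, the peak over the printed promoter had 14.4, 17.1 and 17.1 CPM per kb and was strong. Peaks inside the gene, centred 16009 and 19122 bases from that start, were higher by CPM per kb. The one at chr17:8251688-8252416 had 35.9, 44.2 and 41.0 CPM per kb, and the one at chr17:8254941-8255390 had 39.9, 34.9 and 39.0. These 2 overlapped in level with each other and not with the start peak. The first exceeded the start level by 1.32 ± 0.05 log2 units in 3 of 3 libraries. The start peak was wider, at chr17:8234258-8236263, and by CPM, not divided by width, it was above both in each library.

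Il23r showed the widest gap of the markers, by CPM per kb, between its start and its interior. Its start peak had 1.56, 2.296 and 1.99 CPM per kb, below the median gene-start level of all protein-coding genes in every library. Inside the gene, 32313 bases from the start, the peak at chr6:67459240-67459844 had 52.7, 55.8 and 52.1 CPM per kb and ranked 425 among all peaks on that scale. Another one 8522 bases from the start, at chr6:67482984-67483682, had 42.4, 33.1 and 42.8. The strongest peak was 27.8-fold above the start peak, a log2 difference of 4.80 ± 0.25 (SD, n = 3). Il23r had 3 strong peaks among the 36 assigned to it, Ccr6 4 of 28, Il17f 3 of 17 and Il17a 2 of 19, against 8.6% of all peaks.

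**Figure D2:**
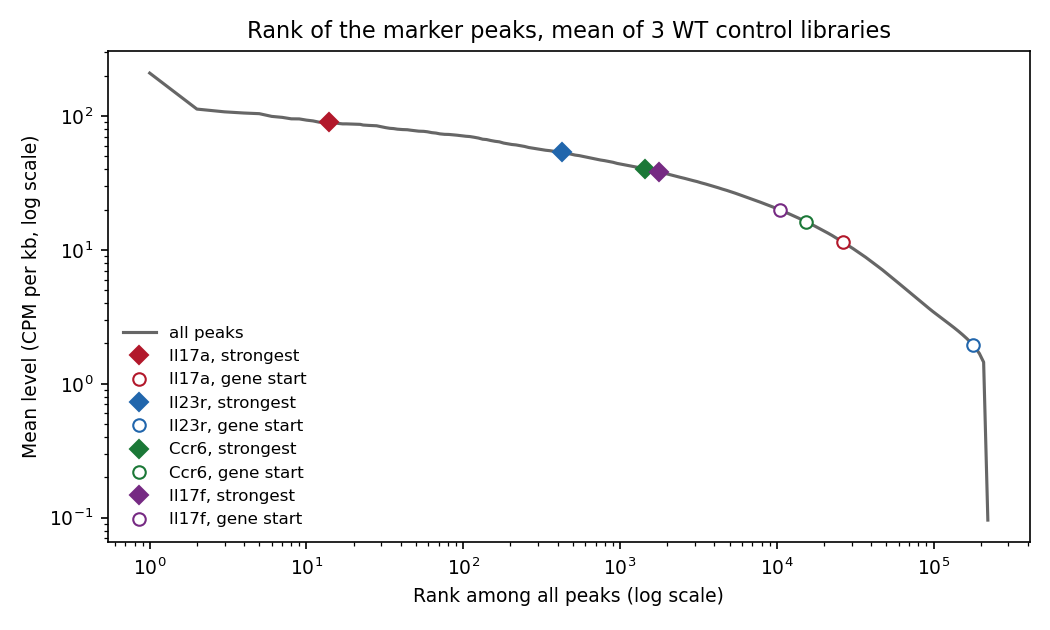
Mean level (CPM per kb, log scale) of all 222105 peaks against their rank (log scale), with the strongest peak (filled diamonds) and the gene-start peak (open circles) of each Th17 marker. By CPM per kb, the strongest Il17a peak ranks 14, that of Il23r 425, that of Ccr6 1435 and that of Il17f 1767, and each lies left of the gene's own start peak.

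The 16 Th17 transcription factors had a median gene-start level of 18.5 CPM per kb, against 6.91 over all protein-coding genes. Of the 16 genes, 15 had a peak at the start, against 69.6% of all protein-coding genes, and 9 had a strong one, against 31.1% of all. A strong peak anywhere among their assigned peaks was present in 14 of 16, against 42.9% of all genes. A gene with more assigned peaks can hold a strong one more easily, and these factors had a median of 34.0 assigned peaks, against 5 over all genes, so the last count is a description of large loci.

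Stat3, which relays IL-6 and IL-23 signals, led with 53.2, 50.6 and 47.4 CPM per kb at its start. Fosl2, an AP-1 member that restrains Th17 plasticity, had 48.8, 54.9 and 47.2, and Bhlhe40, a factor needed for cytokine production by pathogenic T helper cells, had 46.5, 51.8 and 48.6. The 3 ranges overlapped, and each start lay above the 99th percentile of gene starts. Rbpj, the DNA-binding partner of Notch, averaged 34.0 ± 1.75 CPM per kb and Hif1a, the oxygen-sensing factor, 32.4 ± 2.49. Runx1 averaged 22.95 ± 1.76, Maf, which drives IL-10, 20.7 ± 1.00, Ikzf3 18.6 ± 2.05 and the ligand-sensing receptor gene Ahr 18.4 ± 1.11 (SD, n = 3 each), and each of these 9 starts was strong. Bhlhe40, Maf, Ikzf3 and Ahr have no listed start, so their values are those of a span end, which may be the other end of the gene.

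The factors without a strong start were lower. Nfkbiz, an atypical IκB protein, averaged 13.6 ± 2.2997 CPM per kb at a span end, as it has no listed start. At their starts Smad3 averaged 11.6 ± 0.295, Batf 11.05 ± 0.617 and Irf4 10.9 ± 0.497, and none of the 4 was strong. Strong peaks lay elsewhere for 3 of the 4: the highest of Smad3 was inside the gene at 45.3, 47.6 and 40.5 CPM per kb, and that of Batf also inside the gene at 40.9, 47.9 and 46.3. The highest of Irf4 lay 6623 bases outside its span at 25.7, 27.3 and 27.1.

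Rora had no peak within 1 kb of its listed start. Of its 174 assigned peaks 13 were strong, close to the 8.6% of all peaks. The highest, inside the gene and 412226 bases from that start, had 49.6, 56.5 and 52.9 CPM per kb. Sox5, a factor that acts with c-Maf, was similar, with 4.36 ± 0.508 CPM per kb at its start and 13 strong peaks of 149 assigned, also close to that share. Neither gene had a strong start, and both had their strong peaks spread over long spans.

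**Figure D3:**
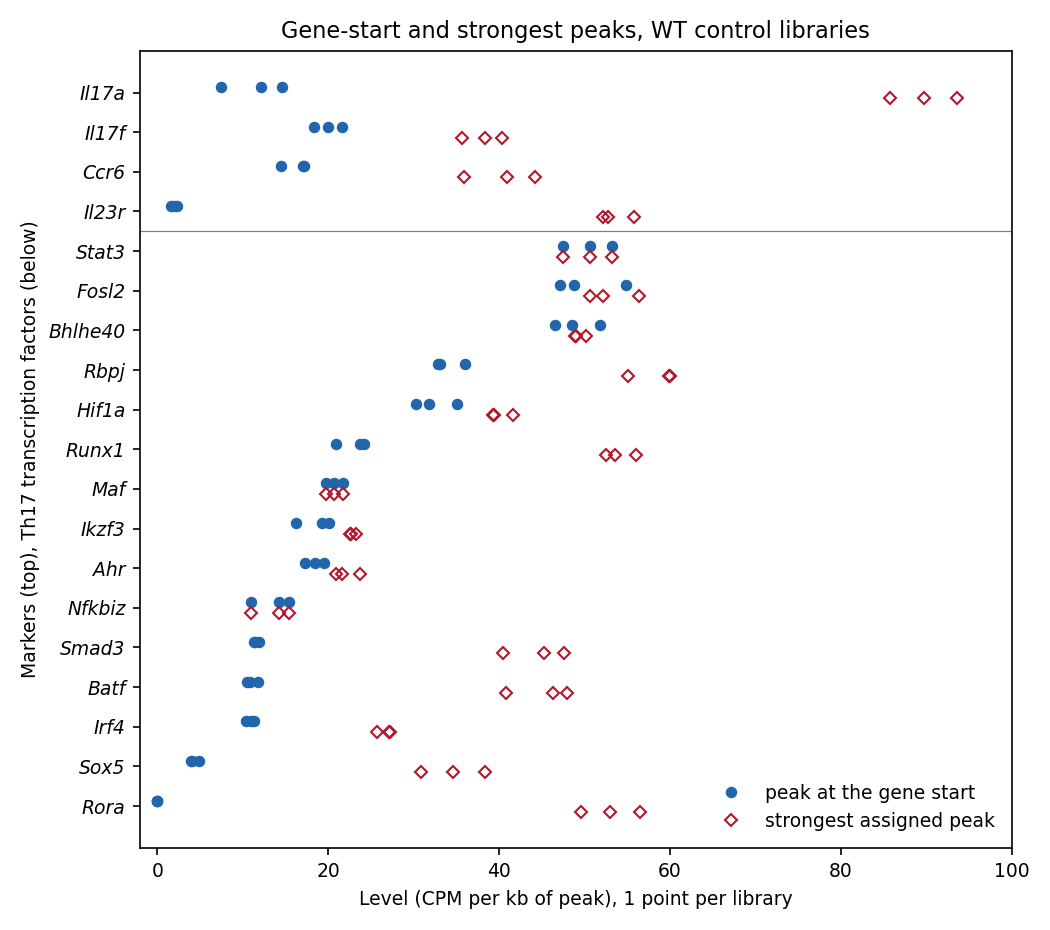
Gene-start level (blue circles) and level of the strongest assigned peak (red open diamonds), in CPM per kb of peak and with 1 point per WT control library, for the 4 markers and 15 of the Th17 transcription factors. Stat3 carried its highest peak at the start, at 47.4 to 53.2, while Rora had none at its listed start and 49.6 to 56.5 inside the gene.

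Stat3 and Il21 are shown side by side because their start levels were alike and their promoters were not. Il21, which encodes a cytokine that amplifies Th17 cells, had 56.3, 52.9 and 47.8 CPM per kb at its start, the highest of the cytokine list. The Stat3 promoter, at chr11:100939491-100939790 (minus strand), had 15 CpG dinucleotides in 300 bases, and that of Il21, at chr3:37232587-37232886 (minus strand), had 5. Capitals mark the same letters as above.
Stat3: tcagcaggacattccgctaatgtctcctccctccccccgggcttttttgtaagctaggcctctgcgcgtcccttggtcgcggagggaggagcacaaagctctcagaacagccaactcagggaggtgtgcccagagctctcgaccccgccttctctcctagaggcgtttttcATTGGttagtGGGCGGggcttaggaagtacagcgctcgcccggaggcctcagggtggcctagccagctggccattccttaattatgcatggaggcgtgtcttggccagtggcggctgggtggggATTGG
Il21: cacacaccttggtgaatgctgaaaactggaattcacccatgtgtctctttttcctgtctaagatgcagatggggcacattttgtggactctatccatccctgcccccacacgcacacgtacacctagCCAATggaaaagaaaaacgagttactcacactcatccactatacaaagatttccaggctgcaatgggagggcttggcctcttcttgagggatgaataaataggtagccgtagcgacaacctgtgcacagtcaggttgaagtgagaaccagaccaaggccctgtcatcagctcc
Stat3 held 2 CCAAT boxes and a GC box, and Il21 held 1 CCAAT box.

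The master regulators of the other T helper lineages were not uniformly closed. Among them Tbx21 and Bcl6 were named after their values were seen. Gata3, the Th2 regulator, had 23.5, 24.8 and 22.3 CPM per kb at its start, and Bcl6, the regulator of follicular helper cells, 13.5, 12.3 and 11.9. Tbx21, which encodes the Th1 regulator T-bet, had 6.42, 6.28 and 5.62, and Foxp3, the regulator of regulatory T cells, 1.95, 1.88 and 0.522. The order was the same in the 3 libraries and no 2 of the 4 overlapped. At the start, Gata3 exceeded Tbx21 by 1.95 ± 0.07 log2 units and Bcl6 by 0.91 ± 0.10 (SD, n = 3), in 3 of 3 libraries each. Foxp3's highest peak, inside the gene, had 11.0, 12.6 and 13.1 CPM per kb, and none of its 7 peaks was strong.

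Beyond those regulators, genes of the other lineages ranged widely. In the Th1 list of 12 genes the median start level was 7.56 CPM per kb, with 3 strong starts, or 25.0% against 31.1% of all genes. Runx3 led at 39.5 ± 1.67 CPM per kb, and among the next was Il18rap, a chain of the IL-18 receptor, at 25.0 ± 3.61. Nkg7 and Ifng were lowest, at 3.42 ± 1.03 and 2.49 ± 0.051. In the Th2 list of 11 genes the median was 13.4 (8.54 within 250 bases of a start), with 6 strong starts, or 54.5%, among them the chemokine receptors Ccr4 at 20.1 ± 1.02 and Ccr8 at 17.5 ± 1.67. Ptgdr2 had 2.90 ± 1.26 CPM per kb at its start, and Il1rl1, the IL-33 receptor, no peak there but 3 strong peaks of 15.

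In the Treg list of 12 genes the median start level was 12.6 CPM per kb (19.4 over its genes with a listed start) and 6 starts were strong, against 31.1% of all genes. Entpd1, which encodes the ectonucleotidase CD39, had 48.7 ± 1.66 CPM per kb, Ctla4, an inhibitory receptor, 42.8 ± 0.775 and Il2ra, the high-affinity IL-2 receptor chain, 24.6 ± 2.0006. Itgae, without a listed start, had 2.096 ± 0.805 at a span end and, with Foxp3, was lowest. In the Tfh list of 10 genes 3 starts were strong, or 30.0% against 31.1% of all genes, and the median was 10.8. Tox2 at 25.1 ± 1.43 and Cxcr5 at 17.9 ± 1.13 came after Il21, and Tox at 7.17 ± 0.581 and Ascl2 at 2.29 ± 0.410 were lowest. Cxcr5 and Tox have no listed start, so their values are those of a span end. High starts in the Treg and Tfh lists were those of surface receptors, an enzyme, a cytokine and Tox2, while Foxp3 and Ascl2 were at the bottom.

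Among 22 cytokine genes the median start level was 10.0 CPM per kb (3.61 within 250 bases of a start), and 7 had a strong start and 15 a strong peak anywhere. The share with a strong start, 31.8%, was close to the 31.1% of all genes. A strong peak anywhere was present in 68.2%, against 42.9% of all genes, with a median of 8.5 assigned peaks against 5. Lta followed Il21, with 41.6, 42.1 and 42.3 CPM per kb, and Il24, at a span end, with 23.2, 25.3 and 25.2. Lta encodes lymphotoxin alpha and Il24 a cytokine of the IL-10 family that Th17 cells make. Tgfb1 averaged 19.1 ± 1.0959, the neighbouring Tnf 18.7 ± 0.721 and Il5, a Th2 cytokine, 13.9 ± 0.902. Csf2, which encodes the pathogenic mediator GM-CSF, had 13.1 ± 1.63. Il10 lay close to Csf2, with 11.5, 11.3 and 12.5 CPM per kb, but has no listed start, so its value is that of a span end.

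Il10 differed from its start level elsewhere in the locus: 6 of its 26 assigned peaks were strong, against 8.6% of all peaks. The highest, 23346 bases outside the span, had 48.5, 51.8 and 47.5 CPM per kb. Il9 was similar, with 3.57 ± 0.548 at its start and 48.4, 52.9 and 47.2 in a peak 2070 bases outside its span. Il2 had 6.86 ± 0.983 at the start and 4 strong peaks of 20, and Tnfsf11, which encodes RANKL, had 10.4 ± 1.24 and 1 of 30. Ifng, the Th1 cytokine, had 2.55, 2.46 and 2.46 CPM per kb at its start, and 3 of its 28 peaks were strong, the highest at 20.7, 25.0 and 23.6. For Il9 and Ifng the strong peaks lay outside the span and the start level was below the all-gene median, while Il10 had a start level above that median as well.

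Of the remaining cytokines, Ebi3 had 9.62 ± 0.644 CPM per kb at its start, above the all-gene median, and the others lay below it. Il12b had 3.71 ± 0.769, Il4 3.65 ± 1.12, Il13 3.54 ± 1.61, Il6 3.38 ± 0.508 and Il3 1.96 ± 0.915, and of these 6 genes, Ebi3 included, only Il12b had a strong assigned peak. Il22, a cytokine many Th17 cells make, had no peak at its start and none of its 3 assigned peaks was strong, the highest having 7.31, 6.28 and 7.25. Il1b, a myeloid cytokine, likewise had no start peak and a highest peak of 12.3, 10.8 and 12.3. No peak means that the joint set lists none in that window, not that a count of 0 was measured there.

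The homeostatic and pathogenic Th17 lists had close medians, 9.64 and 7.29 CPM per kb at the start, and the homeostatic one was 5.00 over genes with a listed start alone and 5.98 within 250 bases of a start. Of the 12 homeostatic genes 3 had a strong start, all of them also on the factor list (Maf, Ikzf3 and Ahr, at span ends), and 10 had a strong peak anywhere. The lowest were Ccl20, the ligand of CCR6, at 3.09 ± 0.850 CPM per kb and Cd5l, a regulator of lipid metabolism in non-pathogenic cells, with no peak at the start. Of the 19 pathogenic genes 6 had a strong start and 12 a strong peak anywhere. Strong starts made up 25.0% of the homeostatic and 31.6% of the pathogenic list, against 31.1% of all genes. Genes with a strong peak anywhere made up 83.3% and 63.2%, against 42.9% of all genes. The lists had medians of 19.5 and 16 assigned peaks, against 5 over all genes. Gpr65, an acid-sensing receptor, led with 40.0 ± 3.74, followed by Sgk1, the salt-sensing kinase, with 20.9 ± 2.46 and the IL-1 receptor gene Il1r1 with 15.2 ± 1.61, and Il23r and Il22 were lowest. Levels within each list thus ran from no start peak to strong starts.

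Receptors for cytokines and chemokines were often open. Of 24 cytokine receptor genes, with a median start level of 14.2 CPM per kb, 15 had a strong start, or 62.5% against 31.1% of all genes. A strong peak anywhere was present in 21, or 87.5% against 42.9% of all genes, with a median of 21.5 assigned peaks against 5. Ifngr1 had 36.0 ± 2.31, Il27ra (no listed start, so at a span end) 25.2 ± 1.95 and Il2ra, given above, came next. Il23r and Il22ra1, a receptor chain of epithelial cells with no start peak, were lowest. Of 16 chemokine and egress receptors, with a median of 15.1, 9 had a strong start, or 56.25% against 31.1% of all genes. Cxcr6 had 45.2, 42.5 and 47.3 CPM per kb, and Ccr9, the gut-homing receptor, 36.0, 37.9 and 34.0. Cxcr6 lay above Ccr9 in all 3 libraries, with no overlap. Cxcr3, a Th1 receptor, had 5.998 ± 0.908 and Ccr2 2.09 ± 0.510, with 2 strong peaks of 14 near Ccr2.

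Of 16 co-stimulatory and co-inhibitory genes, 7 had a strong start, or 43.75% against 31.1% of all genes, with a median of 13.4 CPM per kb. They were led by Ctla4, by Cd28 (no listed start, so at a span end) at 36.0 ± 2.29 and by Prdm1, which encodes Blimp-1, at 32.1 ± 2.32. Cd27 at 6.56 ± 0.592 and Cd160 at 5.40 ± 0.963 were lowest. The AP-1 and activation list of 20 genes had a median of 16.5 and 14 strong starts, or 70.0% against 31.1% of all genes. Fosl2 came first, then Jun at 37.2 ± 3.31 and Junb at 27.8 ± 0.881. Nfatc1 (no listed start, so at a span end) at 8.80 ± 0.336 and Batf3 at 8.46 ± 0.958 were lowest there. Both had strong peaks elsewhere, 3 and 4 in number.

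CD4 T cell identity genes, 20 in all, had a median start level of 14.8 CPM per kb and 11 strong starts, or 55.0% against 31.1% of all genes. Among the highest were Cd28, given above, and Ikzf1, which encodes Ikaros, at 28.5 ± 1.13. Lcp2 at 7.79 ± 0.678 and Cd3d at 6.97 ± 0.243 were lowest, and had 6 and 1 strong assigned peaks. The naive and stem-like list of 12 genes had a median of 16.6 and 8 strong starts, or 66.7% against 31.1% of all genes. Lef1 had 27.3 ± 1.52, Satb1 27.02 ± 0.332 and Il7r 21.3 ± 1.32. Tcf7, which encodes TCF-1, had 5.70 ± 0.525 and Bach2 2.02 ± 0.608 at their starts. Of their assigned peaks 5 of 37 and 24 of 189 were strong, against 8.6% of all peaks.

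Housekeeping genes had the highest list median, 20.8 CPM per kb over 20 genes. Of these 20 genes 16 had a strong start, against 31.1% of all genes. Rplp0 had 47.95, 52.7 and 50.9 CPM per kb, Rpl13a 51.2, 53.0 and 46.4, and Pgk1 41.7, 48.4 and 43.8. Stat3, Fosl2, Bhlhe40 and Il21 therefore had start levels in the range of the most open housekeeping promoters. Gusb at 10.3 ± 1.05 and Ywhaz (no listed start, so at a span end) at 7.32 ± 1.145 were lowest. Actb, named after its values were seen, had 13.2 ± 0.563 at a span end, as it has no listed start. Its highest peak lay 12936 bases outside its span, with 102.8, 104.1 and 91.5 CPM per kb. The highest Il17a peak was below that peak by a log2 difference of -0.15 ± 0.06, in 3 of 3 libraries.

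**Figure D4:**
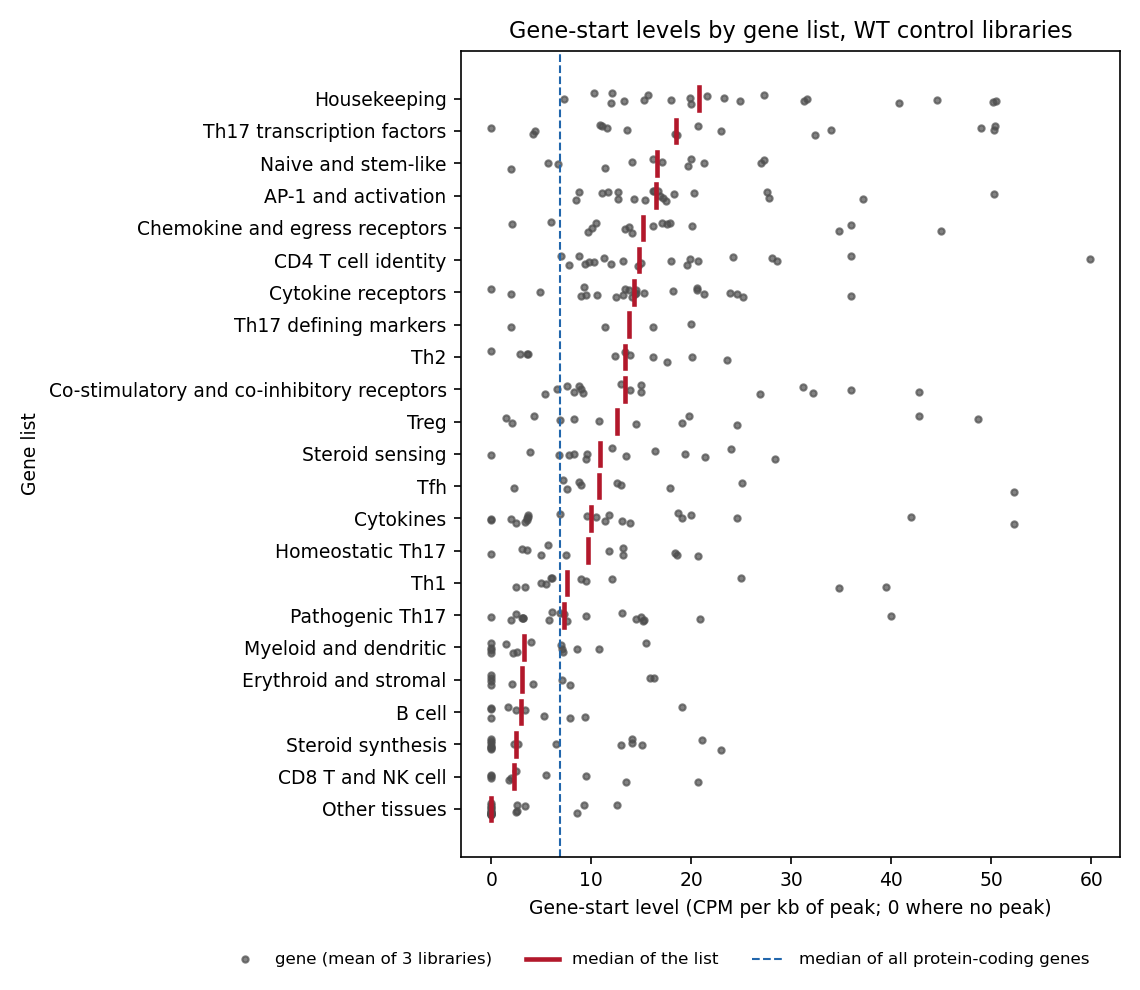
Gene-start level (CPM per kb of peak, mean of the 3 WT control libraries, 0 where the set lists no peak) of each gene in 23 lists, with the median of each list (red bar) and of all protein-coding genes (blue dashed line, 6.91). Lists run from a median of 20.8 for housekeeping genes down to 0 for genes of other tissues.

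Genes of the steroid pathway were described because the series concerns glucocorticoid production and sensing by the cells. Of 16 steroid synthesis genes 9 had a start peak, or 56.2% against 69.6% of all genes, and 5 a strong one, or 31.2% against 31.1%. The median start level was 2.44 CPM per kb. Over the 9 of them with a listed start it was 13.02, so the list's median turns on how starts were placed. The genes that support many cytochrome P450 reactions were open: Fdxr, ferredoxin reductase, had 23.7, 23.1 and 22.2 CPM per kb, Por, P450 oxidoreductase, 21.4, 22.5 and 19.4, and Fdx1, ferredoxin, 14.04, 14.8 and 13.3. Tspo, a mitochondrial cholesterol-binding protein without a listed start, had 14.9, 14.8 and 15.7 at a span end. Stard3, a cholesterol transporter of late endosomes, had 14.2, 12.9 and 12.0. All 5 are expressed in many tissues.

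Cyp11a1, whose enzyme makes pregnenolone from cholesterol in the first step of steroid synthesis, was open as well. Its gene-start level was 12.998, 14.7 and 14.6 CPM per kb, at the second of its 2 listed starts. Of its 20 assigned peaks 4 were strong, against 8.6% of all peaks. The first listed start had 8.20, 8.69 and 6.59 CPM per kb. The 2 highest peaks lay inside the gene, with 23.6, 24.7 and 26.2, and 773 bases beyond its end, with 25.8, 25.4 and 23.5. The promoter of the second start, at chr9:58014702-58015001 (plus strand), is shown because it is the more open of the pair. It had 1 CpG and no match to the searched letters.
Cyp11a1: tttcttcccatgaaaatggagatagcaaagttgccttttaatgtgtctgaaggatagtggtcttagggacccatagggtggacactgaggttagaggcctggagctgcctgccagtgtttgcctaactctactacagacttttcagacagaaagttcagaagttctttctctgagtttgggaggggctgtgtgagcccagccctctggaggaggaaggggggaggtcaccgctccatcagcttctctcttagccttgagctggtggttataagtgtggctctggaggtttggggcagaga

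The other genes of the list had lower start levels than those 6. Cyp11b1 and Cyp17a1, which encode enzymes of later steps, had 2.63 ± 0.428 and 2.25 ± 0.106 CPM per kb at a span end. Nr5a1, a transcription factor of steroid-producing tissues, had 6.52 ± 1.24 at a span end, close to the all-gene median. Cyp11b1, Cyp17a1 and Nr5a1 have no listed start, so these values may be those of the other end of the gene. Star, whose protein delivers cholesterol to Cyp11a1, the enzyme genes Hsd3b1, Hsd3b2, Hsd3b6, Cyp11b2 and Cyp21a1, and the transcription factor gene Nr5a2 had no start peak, and 4 of these 7, namely Hsd3b1, Hsd3b2, Hsd3b6 and Cyp11b2, had no assigned peak at all. The Hsd3b genes and the Cyp11b pair are near-identical copies, whose reads can be lost or split in counting, so their values are uncertain. No gene of the list outside Fdxr, Por, Tspo, Cyp11a1 and Fdx1 had a strong assigned peak.

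Of 14 steroid sensing genes, with a median start level of 10.8 CPM per kb, 13 had a start peak and 5 a strong one, or 35.7% against 31.1% of all genes. Ncoa2, a coactivator of steroid receptors without a listed start, had 28.4 ± 3.34 CPM per kb at a span end. The drug and steroid exporter gene Abcb1b had 23.9 ± 1.13 and the corepressor gene Ncor1 21.4 ± 1.37. Hsd11b1, which regenerates active glucocorticoid, had 3.92 ± 0.674, and Abcb1a had no start peak but 2 strong peaks of 15. The glucocorticoid receptor gene Nr3c1, named after its values were seen, had 8.14, 8.83 and 7.75 CPM per kb at its span ends, near the all-gene median, and its highest peak, inside the gene, had 16.8, 20.7 and 19.4.

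Markers of other cell types had lower medians and fewer strong starts than all genes, but not fewer start peaks in 3 of 4 blood and stromal lists. The share with a start peak was 70.0% in the B cell list, 70.0% in the CD8 T and NK list, 71.4% in the myeloid list and 60.0% in the erythroid and stromal list, against 69.6% of all genes. Strong starts made up 10.0% of the B cell and of the CD8 T and NK list and 7.14% of the myeloid list, against 31.1% of all genes. In the B cell list 7 of 10 genes had a start peak and 1 a strong one, with a summed start level of 45.1 to 51.9 CPM per kb over the 3 libraries. Ebf1, at 19.1 CPM per kb, and Cr2, at 9.38, were the highest, and Cd79a, Ms4a1 and Pax5 had no start peak. In the CD8 T and NK list 7 of 10 had one and 1 was strong, with sums of 53.6 to 58.4; Ncr1, Gzmk and Klrd1 had none, Cd8a had 1.97 ± 0.762, Cd8b1 9.44 ± 1.62 and Prf1, which encodes perforin, 13.5 ± 1.04. In the myeloid list 10 of 14 had one and 1 was strong, with sums of 62.6 to 68.1; Adgre1, Mpo, Clec9a and Siglech had none. In the erythroid and stromal list 6 of 10 had one and 2 were strong, with sums of 49.97 to 55.9. By comparison the 20 CD4 T cell identity genes summed to 366 to 378 CPM per kb, or 18.7 per gene, against 4.73 to 5.54 per gene in those 4 lists and 2.07 in the 20 genes of other tissues, 13 of which had no start peak. The strong starts were those of Ebf1 at 19.1 ± 0.348, Klrb1c at 20.7 ± 1.57, Cebpb at 15.5 ± 1.1043, Cdh5 at 16.3 ± 1.64 and Klf1 at 15.9 ± 1.27. Cd8b1 and Cdh5 have no listed start, so their values are those of a span end. The part of other cells in the levels reported was not tested.

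Over all peaks the level was spread unevenly. The median peak had 3.13 CPM per kb, the 90th percentile 12.9, the 99th 35.8 and the highest 209. Peaks at gene starts were 9.39% of peaks and held 33.2% ± 0.591 of counts (SD, n = 3), and 29.1% of them were strong. Peaks within genes were 50.9% of peaks and held 37.0% ± 0.387 of counts, and 6.21% were strong. Of all strong peaks 32.0% lay at starts, 37.0% within genes, 23.0% between genes and 8.05% farther than 50 kb from protein-coding genes. The spread between libraries narrowed with level, from a median coefficient of variation of 43.7% in the lowest decile of peaks to 7.79% in the highest.

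By CPM per kb, the 15 highest peaks were mostly outside lineage genes. The first lay in Lars2 and the second over the pseudogene Rn18s-rs5, and the ninth in Zc3h7a. These 3 varied most between libraries, since Lars2 had 259, 240 and 130 CPM per kb, Rn18s-rs5 138, 130 and 70.9, and Zc3h7a 114, 104 and 67.7, with replicate 3 lowest each time. Rn18s-rs5 copies ribosomal RNA sequence, so counts there are uncertain. Whether counts at Lars2 and Zc3h7a are uncertain in the same way was not tested. The other 12 had coefficients of variation between 2.54% and 7.01% and lay in or near Mogat1, the lncRNA Gm30292, Kdm4b, Actb, Chd2, Skap1, Pdia4, Zfp869, Malsu1, Utrn, Il17a and Fto. Skap1 encodes a T cell adaptor, and its peak had 93.02, 98.98 and 94.1 CPM per kb. The Il17a peak was the one member of the Th17 lists among the 15.

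The 15 highest peaks by CPM, a scale that favours wide peaks, were others. The first was a peak 14067 bases wide over the naive and central memory receptor gene Ccr7, with 233, 261 and 229 CPM. The second, 12566 bases wide, overlapped Tspoap1 and the miR-142 hairpin and had 251, 246 and 218. Others of the 15 covered Cish, a cytokine-induced suppressor of signalling, at 222, 222 and 216 CPM, Junb at 215, 217 and 204, Il2rb at 211, 210 and 199, Bhlhe40 at 183, 204 and 191, and Il4ra at 191, 174 and 172. One, nearest to Dad1, overlapped Trac, the constant segment of the T cell receptor alpha chain, with 177, 191 and 178 CPM. The remaining 7 were in or near Zswim4, Ing1, Cd82, Dusp2, Mnt, Mtmr4 and Irf2bp2.

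The miR-142 locus makes microRNAs found throughout blood cells, and its 3 mature sequences are shown because they lie inside that region. They are from RefSeq on GRCm38.p6, with the seed, bases 2 to 8, in capitals, and they share no seed.
mmu-miR-142a-5p: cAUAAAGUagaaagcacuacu
mmu-miR-142a-3p: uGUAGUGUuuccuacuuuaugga
mmu-miR-142b: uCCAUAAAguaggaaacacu
The hairpin's own level cannot be separated from that of the rest of the peak at chr11:87753318-87765883.

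The genes with most strong peaks were long ones with many assigned peaks. Foxp1, a quiescence factor, had 28 strong peaks of 224 assigned, Bach2, a repressor of effector differentiation, 24 of 189, and Bcl2, which prevents apoptosis, 19 of 136. The other 12 of the 15 genes with most had 14 to 18: Wwox, Itpr1, Maml2, Lpp, Fars2, Hdac4, Nsmce2, Prkch, Akap13, Elmo1, Chd7 and Etv6. Divided by the length of the span, Bcl2 had 10.8 strong peaks per 100 kb, Chd7 8.42 and Prkch 7.76. Foxp1 had 4.69 and Wwox 1.97, so the order by this ratio was another one. The peaks counted may lie up to 50 kb outside the span, which can raise the ratio most for shorter genes.

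Over all genes, promoter sequence went with the gene-start level. Among the 17267 genes with a listed promoter, 5315 had no start peak, and the rest were split by gene-start level into 4 classes of 2988. The median ratio of observed to expected CpG was 0.186 without a peak, 0.487 in the lowest class, 0.748 and 0.794 in the middle classes and 0.801 in the highest. GC box letters were in 14.2% of promoters without a peak and in 70.1% of the highest class, and ETS letters in 2.54% and 22.9%. TATA box letters ran the other way, at 26.2% without a peak and 5.46% in the highest class. The CCAAT box had no single direction, with 42.3% without a peak, 30.1% in the lower middle class and 52.8% in the highest, and AP-1 letters were in 10.7% without a peak and 5.36% in the highest class. These are descriptions over genes of 1 genome, which share base composition, with no test.

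**Figure D5:**
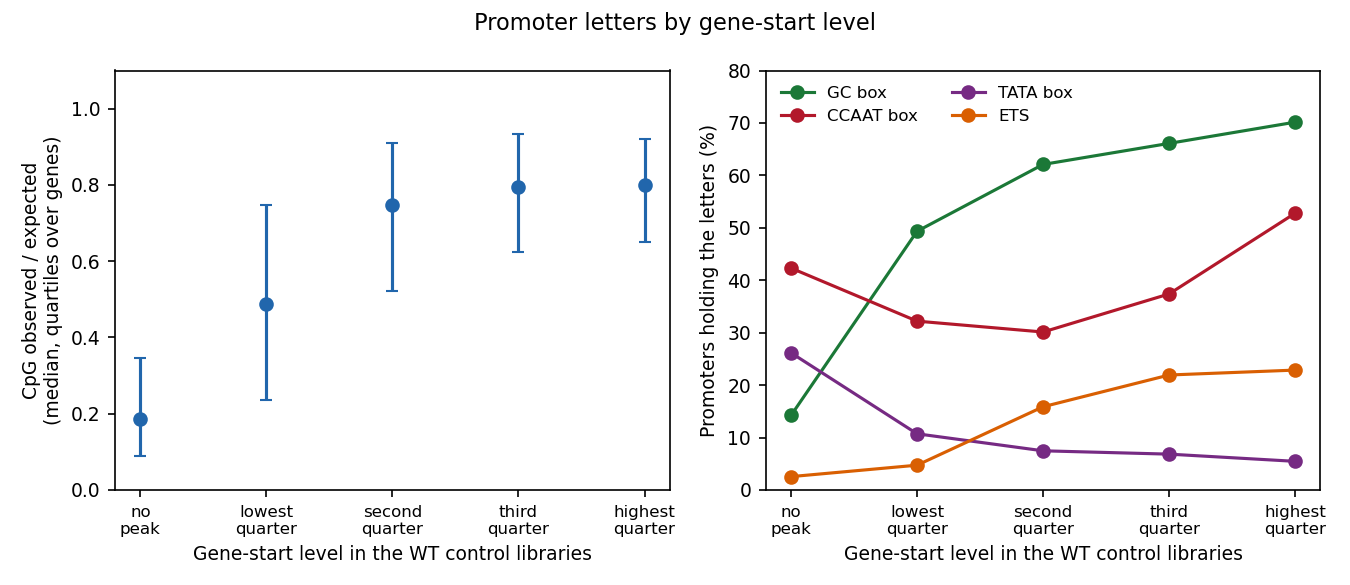
Left, median ratio of observed to expected CpG in the 300-base promoter, with quartiles over genes as bars; right, share of promoters that hold the GC box, CCAAT box, TATA box or ETS letters; both by gene-start level in the WT control libraries. The CpG ratio climbs from 0.186 without a peak to 0.801 in the highest class, while TATA box letters drop.

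Across the lists, start level and CpG ratio did not run in parallel. The 10 Th17 transcription factors with a listed promoter had a median CpG ratio of 0.725, the 15 housekeeping genes 0.806 and the 14 AP-1 and activation genes 0.794, against 0.590 over all promoters. The 20 cytokine genes had 0.253 and the 4 markers 0.204. Lists with medians of 13.4 to 15.1 CPM per kb at the start could be CpG-poor, since the chemokine receptors had a ratio of 0.188, the CD4 T cell identity genes 0.211, the Th2 genes 0.213 and the co-stimulatory genes 0.290. The steroid sensing genes, at 10.8 CPM per kb, had 0.872, and the steroid synthesis genes 0.193. These start medians are over whole lists, and the ratios only over genes with a listed promoter. Over genes with a listed start, the start medians were 13.8 for chemokine receptors, 17.9 for CD4 T cell identity and 13.4 for the Th2 and co-stimulatory lists. They were 9.45 for steroid sensing and 13.02 for steroid synthesis. The TATA box letters were in 10 of the 20 cytokine promoters and in 2 of the 4 marker promoters, against 13.3% of all promoters, and also in 6 of the 15 housekeeping promoters. Il21 and Lta, the cytokine genes of highest start level, had ratios of 0.281 and 0.399, below the median of the lowest class, while Stat3 had 0.545 and Rplp0 0.928. The 4 marker promoters shown had CpG ratios below the all-promoter median. The highest peaks of the markers by CPM per kb lay away from those promoters.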

How the data were processed

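Chromatin accessibility was measured by bulk ATAC-seq. The authors deposited raw whole-number counts per peak with no normalization, per the file headers, for 1 joint set of peaks over all groups, so the set also holds sites open only in other groups; 9 count columns of other groups were not used here. The submitters' processing notes name the build mm10 and list featureCounts 2.1.1, Genrich 0.6.1, deepTools 3.5.6, SAMtools 1.3, Picard 2.18.27, Bowtie2 2.3.5 and Trimmomatic 0.39. What each did, which filters applied, whether cut sites were shifted and whether reads or fragments were counted are points not given in the sources used here.

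The 3 WT control libraries were grouped by their labels. Counts were divided by TMM-scaled library sizes from edgeR 4.0.16 (R 4.3.3; factors 1.02, 0.974 and 1.01) and by peak width. Genes were the protein-coding genes of the RefSeq GRCm38.p6 table on the chromosomes of the peak set; 269 others were left out. A gene start was each start listed in the RefSeq promoter table (17274 genes) and otherwise either end of the span (4357 genes, for which the start peak may lie at the other end). A peak was assigned to the shortest span that holds its centre, otherwise to the nearest within 50 kb, whether or not it acts on that gene. Genes named are the markers, all Th17 factors, cytokines and steroid synthesis genes, the 3 highest and 2 lowest starts of each other list, the 15 leading peaks by each scale, the 15 genes with most strong peaks and the 5 most variable peaks of at least 10 CPM. A few genes that this rule names are not reported here. The lists and the libraries described were chosen with earlier results of these data known. No test was made; the steps were tested on simulated data. Alternatives were other scalings, distances, thresholds and left-out libraries.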

Additional observations from a re-analysis of the deposited data

How the results depend on the processing

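No paired analysis was possible because a single group was described and no result came from a test. Scaling by total counts or by DESeq2 1.42.0 size factors kept the level of all 42 named peaks and the medians of all 23 lists within 1 SD. Keeping only peaks of at least 10 counts in each library raised the median peak level from 3.13 to 5.02 CPM per kb and lowered the share of counts in the top 10% of peaks by count from 63.2% to 52.7%, and the lowest Pearson's r between libraries was 0.968 in place of 0.956. The median gene-start level of all genes, 6.91, was 6.06 within 250 bases of a start and 7.77 within 2 kb. Genes with a strong peak numbered 5807 with strong as the top 5%, against 9276. Of the 23 lists, 17 had medians above that of all genes, and 15 to 17 under the alternatives. Within 250 bases the cytokine list had a median of 3.61 and the homeostatic list 5.98, both below all genes. With only genes of a listed start, an alternative chosen after seeing the data, steroid synthesis had 13.02 over its 9 listed genes and stood above the 7.15 of all genes, while the homeostatic, Th1 and pathogenic lists, at 5.00, 6.05 and 6.90, fell below it. With either end for every gene, also chosen afterwards, the factor list had 12.6 in place of 18.5. The Th2 median was 8.54 within 250 bases, and that of the Treg list 19.4 over genes with a listed start. Medians of the 4 lists of other blood and stromal cells stayed below those of all genes in each setting, between 0 and 5.63. Without 1 replicate in turn, named peaks moved to between 0.609 and 1.25 times their level. Leaving out 1 of 3 values cannot move their mean by 1 SD, so staying within 1 SD is no check for the named peaks. Of the 23 list medians 22, or all 23, stayed within 1 SD. The exception was the co-stimulatory list without replicate 1, at 12.9 in place of 13.4. Depth limits peaks near 1 CPM, about the median peak, and below.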

Other observations

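Some genes that mark other cell types had strong peaks. Ebf1, a B cell factor, had 12 strong peaks of 93 assigned, against 8.6% of all peaks, and a strong start. Pecam1, an endothelial gene without a listed start, had 2.04 ± 0.551 CPM per kb at a span end. A peak 1549 bases outside its span had 46.1, 51.3 and 44.2. Itgam, a myeloid integrin gene, had 2.54 ± 1.28 at its start and a peak 11722 bases outside its span with 48.0, 49.1 and 44.4. These genes were singled out after their values were seen, and a peak near a gene need not act on it. The part of other cells in these levels was not tested.

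The peaks that varied most between the libraries, among those with a mean of at least 10 CPM, were 5. One inside Thy1, a T cell surface marker, at chr9:44046559-44047496, had 8.82, 22.5 and 6.23 CPM in replicates 1, 2 and 3. Of the other 4, 3 were adjacent peaks in Mroh2a, the widest with 31.6, 13.6 and 10.5 CPM, and 1 was at chr4:3050048-3055626, over 50 kb from a protein-coding gene, with 16.97, 6.94 and 6.35. Replicate 2 was high at Thy1, and replicate 1 was high at the other 4. The start of Thy1 itself, a gene end without a listed start, had 9.77, 9.79 and 9.70 CPM per kb.

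Chromosome X had the lowest share of strong peaks, 6.02% of its 4252 peaks, against 7.83% to 9.64% on the other chromosomes, although its median peak level of 3.25 CPM per kb was close to that of all peaks.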
